A study of Homo sapiens with 16 samples.

Results

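A group of 9 genes of alternative splicing in epithelial and mesenchymal cells was followed across 8 groups of PANC-1, a human cell line established from a carcinoma of the pancreatic duct. They are 5 regulators of splicing (ESRP1, ESRP2, RBFOX2, QKI and MBNL1) and 4 genes whose transcripts such regulators splice in different forms (FGFR2, CD44, CTNND1 and ENAH). They were taken by gene symbol from a deposited table of 58219 genes, and all 9 were found, with counts in every one of the 16 libraries. The study asked how FLASH, NPAT and SLBP, factors of histone gene expression, act on the transition between epithelial and mesenchymal states (EMT).

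There were 4 kinds of cells: non-transfected ones and those given an siRNA against FLASH (gene CASP8AP2), NPAT or SLBP. Each kind was kept without TGFb, a secreted factor and strong inducer of EMT, or exposed to it (100 ng/ml, 48 h). Each of the 8 groups had 2 libraries of poly(A)-selected RNA. All cells were of the same line and carried no other engineered change that the labels name. No group is labelled as carrying a non-targeting siRNA, and it is not stated whether the non-transfected cells, which are also called Mock, were exposed to the transfection reagent. Each comparison of siRNA cells with non-transfected cells therefore includes the uptake of an siRNA. The time of harvest is day 3 in the sample titles but 4 days from transfection in the design text. Nothing says that the 2 libraries of a group came from separate cultures, so p values measure the spread between these libraries, which may be technical.

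ESRP1 and ESRP2 are RNA-binding proteins of epithelial cells that hold many transcripts in their epithelial form and are commonly lost in EMT. RBFOX2, QKI and MBNL1 bind other short RNA motifs, and RBFOX2 and QKI are known for favouring mesenchymal forms of several transcripts. Among the targets, the receptor FGFR2 is made with either of 2 alternative exons, named IIIb in epithelial cells and IIIc in mesenchymal cells, which decide which fibroblast growth factors it binds. CD44, the hyaluronan receptor, keeps or skips a block of variable exons, ENAH (Mena, an actin regulator) gains the epithelial exon 11a, and CTNND1 (p120 catenin, which holds cadherins at the membrane) differs in its start and in short optional exons.

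These exons are shown because the deposited values hold no exon counts, only a transcript length per gene, and the size of an exon sets how far a switch can move that length. All are from GENCODE release 29 on GRCh38, written 5′ to 3′ on the strand of the gene. The IIIb exon of FGFR2 (minus strand) lies at chr10:121518682-121518829 and has 148 bases. The IIIc exon that replaces it has 145 bases, a difference of 3 bases.
FGFR2 IIIb: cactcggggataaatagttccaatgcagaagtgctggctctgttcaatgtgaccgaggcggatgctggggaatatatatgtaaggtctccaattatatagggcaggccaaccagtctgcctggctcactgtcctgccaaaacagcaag
ENAH exon 11a lies at chr1:225504991-225505053 (minus strand) and has 63 bases, and the optional exon C of CTNND1 lies at chr11:57806461-57806478 (plus strand) and has 18 bases.
ENAH exon 11a: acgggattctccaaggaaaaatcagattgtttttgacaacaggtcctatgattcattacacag
CTNND1 exon C: atgagtggttctccagag
The variable exons of CD44 (chromosome 11) are the largest such block among the 9 genes, with up to 1092 bases in 9 exons of 1 annotated transcript. Of the 26 annotated coding transcripts of CD44, 6 held none of these exons.

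Libraries held 23.8 to 30.8 M counts. Each siRNA left its own target at 5.77% to 21% of the non-transfected level, with and without TGFb (highest adjusted p = 4.3e-06, edgeR). The 6 markers of epithelial cancer cells (4 keratins, EPCAM and CDH1) were found in every library. Their sum was 1140 to 1244 CPM (counts scaled to library size) in non-transfected cells, 1574 to 1686 CPM after FLASH siRNA, 1360 to 1559 CPM after NPAT siRNA and 1234 to 1241 CPM after SLBP siRNA, and 726 to 1188 CPM over the groups with TGFb. Of the genes of other cell types, PTPRC and CD3E (leukocytes) reached at most 0.274 CPM, CDH5 (endothelium) 0.332 CPM, DCN (fibroblasts) 0.57 CPM and HBB (blood) 0.111 CPM. Others on the same lists reached more: CD14 (leukocytes) 2.51 CPM, VWF (endothelium) 9.29 CPM, and LUM, PDGFRB, ACTA2 and THY1 (fibroblasts) 5.82, 5.94, 6.12 and 50.4 CPM. The summed leukocyte list of 6 genes, nearly all of it CD68, a lysosomal membrane protein, was at 61.1 to 122 CPM in non-transfected cells, 98.5 to 116 CPM after FLASH, 63.7 to 188 CPM after NPAT and 28.9 to 76.9 CPM after SLBP siRNA. With TGFb it was at 42.6 to 57.4, 74.2 to 88.1, 72.5 to 108 and 26.9 to 51 CPM in that order. The summed fibroblast list of 6 genes, nearly all of it the collagen gene COL1A1, was at 47.6 to 89.1 CPM in non-transfected cells, 165 to 864 CPM in siRNA cells without TGFb and 2198 to 6500 CPM in the groups with TGFb. The summed endothelial list of 4 genes, mostly VWF, was at most 0.277 CPM in non-transfected cells with or without TGFb and 1.42 to 11.2 CPM in siRNA cells. After FLASH, NPAT and SLBP siRNA without TGFb, 5, 3 and 5 of the 6 fibroblast genes were higher at an adjusted p below 0.05 (edgeR). These were 83.3%, 50% and 83.3%, where 33.8%, 32.3% and 25.9% of all genes passed in either direction. So were 3, 2 and 1 of 3 endothelial genes tested (100%, 66.7% and 33.3%) and 1, 1 and 0 of 3 leukocyte genes (33.3%, 33.3% and 0%). The endothelial genes held almost no counts in non-transfected cells and were kept for testing through the siRNA groups. The number of them that passed is therefore not taken as support for a rise. The part of these changes in the results was not tested. All comparisons of siRNA cells with non-transfected cells in the same condition share the same 2 control libraries. In such bulk RNA, fewer cells that express a gene and less RNA of it per cell cannot be told apart.

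Levels were tested with edgeR's quasi-likelihood test over 17743 genes with Benjamini-Hochberg adjustment, and a gene passed at an adjusted p below 0.05. All 9 genes were kept by the filter on low counts, and 53 to 64481 counts lay behind the individual values. Levels of different genes are compared here in TPM, which takes account of transcript length. CD44 was the most abundant, at 868 to 1437 TPM over the 16 libraries. QKI (118 to 209 TPM), ENAH (75.2 to 232 TPM), CTNND1 (78.3 to 175 TPM) and MBNL1 (69.8 to 107 TPM) formed a middle range, with RBFOX2 below them at 27.8 to 44 TPM. ESRP2 was at 7.04 to 15.9 TPM, ESRP1 at 1.25 to 9.25 TPM and FGFR2 at 1.02 to 6.18 TPM. ESRP2 thus exceeded ESRP1 in each of the 16 libraries.

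FLASH siRNA moved more of the 9 genes than the other siRNAs did. Without TGFb, 4 of 9 rose (ESRP1, FGFR2, ESRP2 and RBFOX2) and 2 fell (QKI and CTNND1), where 33.8% of all genes passed, 20.8% as higher and 12.9% as lower. With TGFb 3 rose (ESRP1, FGFR2 and ESRP2) and 1 fell (QKI), where 26.6% of all genes passed, 17.5% as higher and 9.06% as lower. NPAT siRNA raised ESRP1, FGFR2 and CD44 without TGFb, where 32.3% of all genes passed (18.9% higher, 13.3% lower), and ESRP1 alone with TGFb, where 24.1% passed (13.7% higher, 10.3% lower). SLBP siRNA raised RBFOX2 alone, without TGFb (25.9% of all genes passed, 15.1% higher and 10.8% lower) and with TGFb (19.9% passed, 12.3% higher and 7.6% lower). The share of the 9 genes that passed was thus above that of all genes for FLASH siRNA, close to it for NPAT siRNA without TGFb, and below it for NPAT siRNA with TGFb and for SLBP siRNA. The replicate number of the libraries was also fitted as a block (the replicate block). There, 4 of 9 passed for SLBP siRNA without TGFb (44.4%, against 39.1% of all genes) and 4 of 9 with TGFb (44.4%, against 32.2%). For FLASH siRNA the share stayed above that of all genes (77.8% against 45.6%, and 55.6% against 38.5% with TGFb), and for NPAT siRNA it was 44.4% against 44.7%, and 33.3% against 37.8% with TGFb. A single gene is 11.1% of the 9, so the shares for NPAT and SLBP siRNA are not read as a difference from all genes. The 9 genes were chosen with earlier results of these data known, so the share for FLASH siRNA is not an independent result. The median log2 fold change of the 9 genes was between -0.03 and 0.2 in these 6 comparisons and that of all genes between 0.01 and 0.06.

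TGFb moved ENAH in each of the 4 kinds of cells and CTNND1 in SLBP siRNA cells. No other of the 9 genes passed in the main fit, which has no replicate block. The share of all genes that passed for TGFb was 6.18% in non-transfected cells, 4.11% in FLASH, 5.33% in NPAT and 12.6% in SLBP siRNA cells. In that order, 4.54%, 3.35%, 3.42% and 8.07% passed as higher and 1.64%, 0.755%, 1.92% and 4.51% as lower. The median log2 fold change of the 9 genes was -0.06, -0.04, -0.16 and -0.29 in that order, against 0 to -0.02 for all genes. With the replicate block, 1, 2, 3 and 5 of the 9 genes passed in that order, where 11.9%, 10.1%, 12.2% and 22.1% of all genes did. None of the 9 genes passed the test of an interaction between an siRNA and TGFb, and none had an unadjusted p below 0.05 in it, in edgeR. DESeq2 likewise called none of the 9. Over all genes, 0.0845% (FLASH), 0.0451% (NPAT) and 0.0225% (SLBP) passed that test. A change in the TGFb response of these 9 genes by an siRNA was thus not detectable with 2 libraries per group, and its 95% intervals were wide: for ESRP1 the interaction with FLASH siRNA was -0.04 on the log2 scale, with an interval from -1.13 to 1.04.

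**Figure D1:**
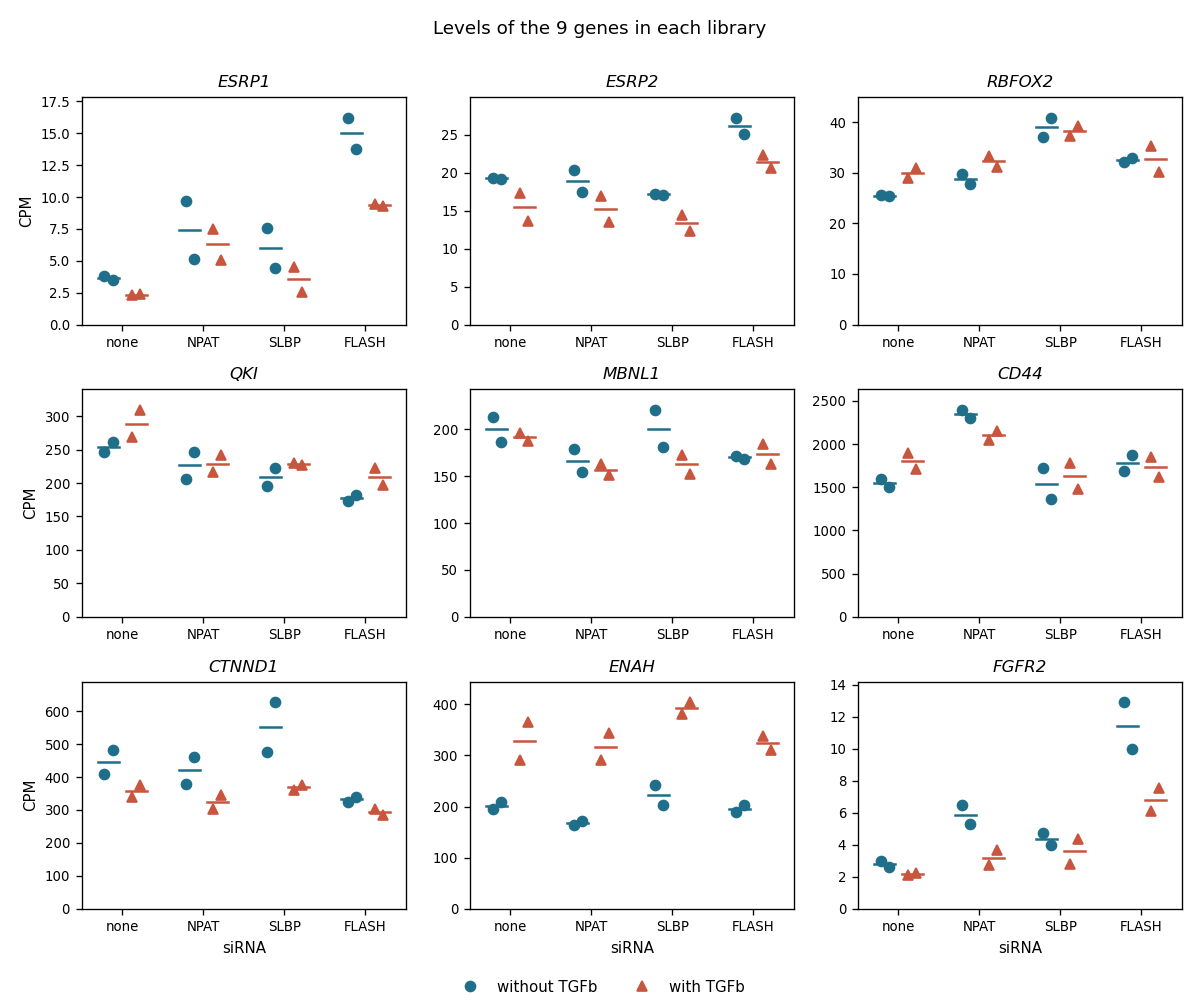
Level of each of the 9 genes in CPM in every library (circles without TGFb, triangles with TGFb, short lines the mean of 2 libraries), by siRNA. ESRP1 and FGFR2 are highest in the 2 libraries with FLASH siRNA and no TGFb, and ENAH is higher with TGFb in every kind of cell.

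ESRP1 (ENSG00000104413.15, GRCh38 chromosome 8, 94641074 to 94707466, plus strand) was at 3.79 and 3.5 CPM in the non-transfected libraries and at 16.2 and 13.8 CPM after FLASH siRNA. With TGFb the values were 2.34 and 2.37 CPM in non-transfected cells and 9.49 and 9.33 CPM after FLASH siRNA. In both conditions the FLASH libraries lay far above the controls, with no overlap. The log2 fold change was 2.04 ± 0.35 (SE) without TGFb (4.11-fold, adjusted p = 0.00087) and 2 ± 0.36 with TGFb (3.99-fold, adjusted p = 0.0016). Both calls held in all 22 other settings tried, among them the omission of any single library.

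The other siRNAs gave smaller and more scattered values of ESRP1. After NPAT siRNA it was at 9.73 and 5.12 CPM without TGFb and at 7.53 and 5.05 CPM with TGFb, in each case above both control libraries. The log2 fold changes were 1.03 ± 0.35 (adjusted p = 0.039) and 1.41 ± 0.36 (adjusted p = 0.015). The first call was lost in 11 of 22 settings, where the fold change went down to 0.49 (adjusted p = 0.35) without NPAT siRNA replicate 1, and the second in 3. After SLBP siRNA the values were 7.56 and 4.45 CPM without TGFb and 4.54 and 2.57 CPM with TGFb. These also lay above the controls, but at log2 fold changes of 0.72 ± 0.35 (adjusted p = 0.14) and 0.59 ± 0.37 (adjusted p = 0.28) they did not pass. With the replicate block the first did (0.69, adjusted p = 0.033).

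In order of mean level, ESRP1 was highest after FLASH siRNA (15 ± 1.68 CPM, SD, n = 2), then after FLASH siRNA with TGFb (9.41 ± 0.113), NPAT siRNA (7.42 ± 3.26), NPAT siRNA with TGFb (6.29 ± 1.75), SLBP siRNA (6 ± 2.2), in non-transfected cells (3.64 ± 0.199), after SLBP siRNA with TGFb (3.55 ± 1.4) and in non-transfected cells with TGFb (2.35 ± 0.0236). Neighbours in this order overlapped, except that the libraries of the first group lay above those of the second, those of SLBP siRNA above the non-transfected ones, and those of SLBP siRNA with TGFb above the last group. ESRP1 was lower with TGFb in the mean of each kind of cell, and none of the 4 differences passed: they were -0.63 in non-transfected, -0.67 in FLASH, -0.25 in NPAT and -0.76 in SLBP siRNA cells on the log2 scale, with adjusted p of 0.43, 0.34, 0.78 and 0.2. With the replicate block the last passed (-0.75, adjusted p = 0.036).

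ESRP2 (ENSG00000103067.13, chromosome 16, 68229111 to 68238102, minus strand), the paralog, moved less. It was at 19.3 and 19.2 CPM in non-transfected cells and at 27.2 and 25.1 CPM after FLASH siRNA, and with TGFb at 17.3 and 13.6 CPM and at 22.3 and 20.6 CPM. The FLASH libraries lay above the controls in both conditions. The log2 fold change was 0.44 ± 0.15 without TGFb (1.36-fold, adjusted p = 0.038) and 0.48 ± 0.15 with TGFb (1.39-fold, adjusted p = 0.035). These calls were close to the threshold, and 11 and 4 of 22 settings lost them. Without non-transfected replicate 2 with TGFb the second was 0.31 (adjusted p = 0.27). After NPAT and SLBP siRNA, ESRP2 differed from the controls by -0.21 to -0.03 on the log2 scale and did not pass.
In each kind of cell both libraries with TGFb held less ESRP2 than both without, with log2 fold changes of -0.36 to -0.28 and adjusted p of 0.16 to 0.39, and with the replicate block the difference in SLBP siRNA cells passed (-0.36, adjusted p = 0.031). ESRP2 shares 149 exonic bases with NFATC3 on the opposite strand and 35 with AC020978.5 on its own strand, and the strand setting of the counting is not given in the sources used here.

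RBFOX2 (ENSG00000100320.22, chromosome 22, 35738736 to 36028425, minus strand) was the 1 regulator that SLBP siRNA raised. It was at 25.5 and 25.4 CPM in non-transfected cells, at 37.1 and 40.8 CPM after SLBP siRNA and at 32.2 and 33 CPM after FLASH siRNA. Both siRNA groups lay above the controls without overlap. The log2 fold change was 0.61 ± 0.1 after SLBP siRNA (1.53-fold, adjusted p = 0.0016) and 0.36 ± 0.1 after FLASH siRNA (1.28-fold, adjusted p = 0.019). The first call was lost in 1 of 22 settings, a fit of the 2 groups alone, and the second in 5.
With TGFb the controls were at 29 and 30.9 CPM and the SLBP siRNA libraries at 37.2 and 39.3 CPM, a log2 fold change of 0.35 ± 0.1 (adjusted p = 0.032) that 9 of 22 settings lost. After NPAT siRNA the values were 29.8 and 27.8 CPM, a log2 fold change of 0.18 ± 0.1 that did not pass (adjusted p = 0.21).

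QKI (ENSG00000112531.16, chromosome 6, 163414000 to 163578596, plus strand) moved the other way after FLASH siRNA. It was at 246 and 262 CPM in non-transfected cells and at 173 and 182 CPM after FLASH siRNA, and with TGFb at 269 and 309 CPM and at 222 and 197 CPM. The FLASH libraries lay below the controls in both conditions. QKI fell by 0.52 ± 0.12 on the log2 scale without TGFb (adjusted p = 0.0049, a call that held in all 22 settings) and by 0.46 ± 0.12 with TGFb (adjusted p = 0.011). The second call was lost without non-transfected replicate 2 with TGFb or without FLASH siRNA replicate 2 with TGFb.
After NPAT and SLBP siRNA with TGFb, QKI was also below both control libraries, at 216 and 242 CPM and at 229 and 227 CPM. These differences, of -0.33 and -0.34 on the log2 scale, just missed the threshold (adjusted p = 0.053 and 0.057) and passed with the replicate block (adjusted p = 0.015 and 0.017). After SLBP siRNA without TGFb the difference was -0.28 (adjusted p = 0.093, and 0.033 with the replicate block).

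MBNL1 (ENSG00000152601.17, chromosome 3, 152243828 to 152465780, plus strand) passed in none of the 19 comparisons by level. It ranged from 151 to 221 CPM over the 16 libraries, and its largest difference from controls was -0.3 ± 0.12 on the log2 scale for TGFb in SLBP siRNA cells (adjusted p = 0.13). In each of the 8 groups replicate 1 was above replicate 2, such as 213 and 187 CPM in non-transfected cells. The replicate block takes such shared differences out, and with it MBNL1 passed as lower for TGFb in SLBP siRNA cells (adjusted p = 0.013), after FLASH siRNA without TGFb (-0.23, adjusted p = 0.027), after NPAT siRNA without TGFb (-0.26, adjusted p = 0.014) and with TGFb (-0.29, adjusted p = 0.0097), and after SLBP siRNA with TGFb (-0.24, adjusted p = 0.029). MBNL1 shares 1140 exonic bases with the antisense gene MBNL1-AS1, which held 6 to 53 counts in each library.

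**Figure D2:**
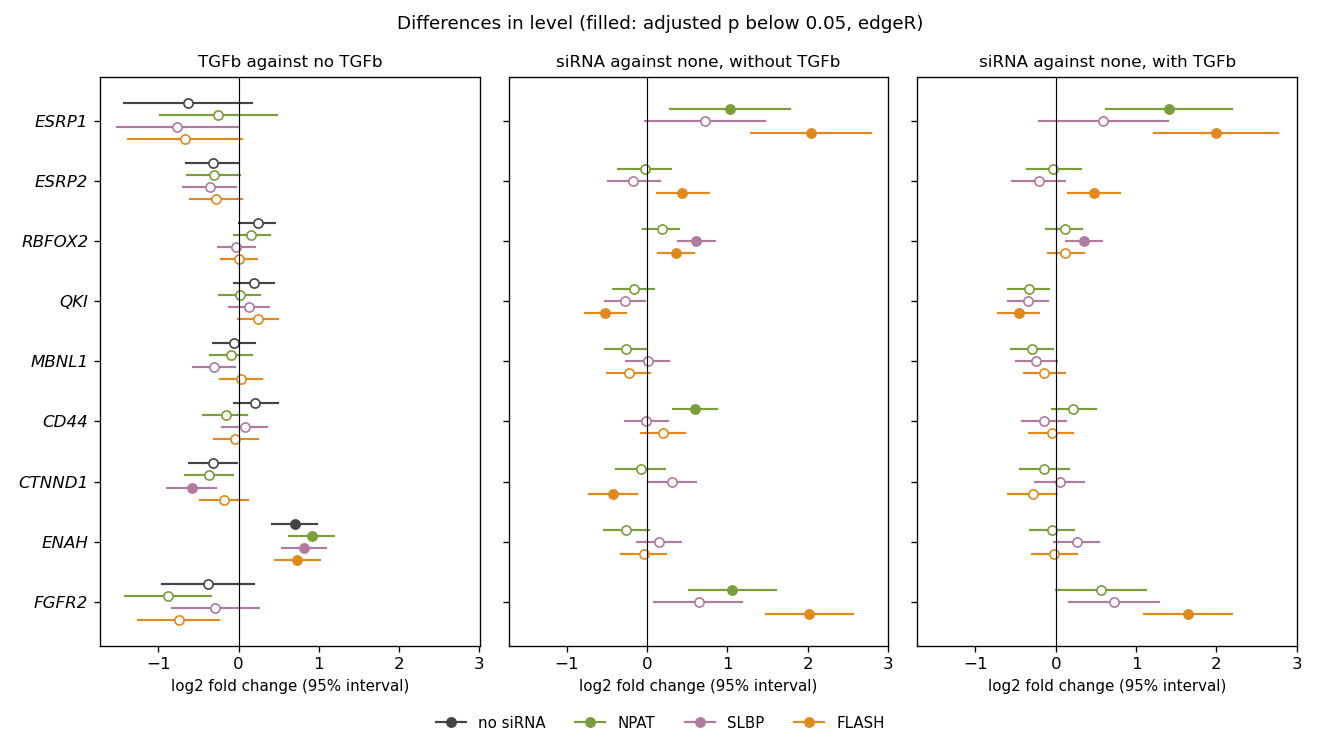
Log2 fold change with its 95% interval for each of the 9 genes, for TGFb in the 4 kinds of cells (left) and for each siRNA against non-transfected cells without (middle) and with TGFb (right). Filled points passed at an adjusted p below 0.05 (edgeR), as ENAH did in all 4 TGFb comparisons and ESRP1 and FGFR2 after FLASH siRNA.

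Of the genes with regulated transcript forms, FGFR2 (ENSG00000066468.22, chromosome 10, 121478334 to 121598458, minus strand), whose IIIb exon is printed above, rose after FLASH siRNA in both conditions. It was at 3 and 2.63 CPM in non-transfected cells and at 12.9 and 9.95 CPM after FLASH siRNA. With TGFb it was at 2.1 and 2.23 CPM and at 6.08 and 7.56 CPM. The FLASH libraries lay above the controls throughout, and the log2 fold change was 2.02 ± 0.25 without TGFb (4.05-fold, adjusted p = 1e-04) and 1.65 ± 0.25 with TGFb (3.14-fold, adjusted p = 0.00057). Both calls held in all 22 settings.

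After NPAT siRNA without TGFb, FGFR2 was at 6.45 and 5.32 CPM, again above both controls, with a log2 fold change of 1.06 ± 0.25 (2.09-fold, adjusted p = 0.0072). The call was lost on the TPM scale (0.71, adjusted p = 0.18) and without non-transfected replicate 2. With TGFb the NPAT siRNA libraries were at 2.73 and 3.64 CPM (log2 fold change 0.56 ± 0.26, adjusted p = 0.13). After SLBP siRNA the values were 4.76 and 3.99 CPM without TGFb and 2.81 and 4.36 CPM with TGFb, and the log2 fold changes of 0.64 ± 0.25 and 0.72 ± 0.26 did not pass (adjusted p = 0.079 and 0.069). With the replicate block the second did (adjusted p = 0.048).

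In order of mean level, FGFR2 was highest after FLASH siRNA (11.4 ± 2.09 CPM, SD, n = 2), then after FLASH siRNA with TGFb (6.82 ± 1.05), NPAT siRNA (5.88 ± 0.801), SLBP siRNA (4.37 ± 0.546), SLBP siRNA with TGFb (3.58 ± 1.1), NPAT siRNA with TGFb (3.19 ± 0.646), in non-transfected cells (2.81 ± 0.263) and in non-transfected cells with TGFb (2.16 ± 0.0901). Neighbours in this order overlapped, except that the libraries of FLASH siRNA, of NPAT siRNA and of non-transfected cells lay above those of the group next below. The mean was lower with TGFb in each kind of cell. Both libraries with TGFb lay below both without in non-transfected, FLASH and NPAT siRNA cells, and the differences were -0.38, -0.74 and -0.88 on the log2 scale (adjusted p = 0.53, 0.11 and 0.062). The replicate block brought those in FLASH (-0.75, adjusted p = 0.046) and NPAT siRNA cells (-0.88, adjusted p = 0.028) past the threshold.

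CD44 (ENSG00000026508.17, chromosome 11, 35138870 to 35232402, plus strand) rose after NPAT siRNA alone. It was at 1601 and 1505 CPM in non-transfected cells and at 2394 and 2304 CPM after NPAT siRNA, with a wide gap between the groups. The log2 fold change was 0.6 ± 0.13 (1.51-fold, adjusted p = 0.0041). On the TPM scale, which divides by transcript length, the levels were 1181 ± 17 and 1401 ± 51.9 TPM (SD, n = 2) and the log2 difference was 0.25, which did not pass (adjusted p = 0.22, limma); no other of the 22 settings lost the call. With TGFb the values were 1893 and 1706 CPM in controls and 2046 and 2155 CPM after NPAT siRNA (log2 fold change 0.22 ± 0.13, adjusted p = 0.21).

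CTNND1 (ENSG00000198561.13, chromosome 11, 57753243 to 57819546, plus strand) was at 409 and 482 CPM in non-transfected cells and at 325 and 340 CPM after FLASH siRNA. The FLASH libraries lay below, by 0.42 ± 0.14 on the log2 scale (adjusted p = 0.034), a call that 4 of 22 settings lost. In SLBP siRNA cells it was at 476 and 627 CPM without TGFb and at 361 and 376 CPM with TGFb, and fell by 0.58 ± 0.14 on the log2 scale (adjusted p = 0.016).
That call was lost in 5 settings, among them the omission of SLBP siRNA replicate 2, the higher library (-0.36 was the smallest difference over the settings). In the other kinds of cells both libraries with TGFb were likewise below both without, with log2 fold changes of -0.32 (non-transfected), -0.37 (NPAT) and -0.18 (FLASH) that did not pass (adjusted p = 0.25, 0.17 and 0.6). The one in NPAT siRNA cells passed with the replicate block (adjusted p = 0.028), as did SLBP siRNA without TGFb (0.3, adjusted p = 0.028) and FLASH siRNA with TGFb (-0.28, adjusted p = 0.043) against non-transfected cells. The readthrough gene TMX2-CTNND1, which shares exons with CTNND1, held at most 4.62 counts in a library.

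ENAH (ENSG00000154380.17, chromosome 1, 225486835 to 225653142, minus strand) was the 1 gene of the 9 that TGFb raised, in every kind of cell. In non-transfected cells it went from 194 and 208 CPM to 290 and 365 CPM, in FLASH siRNA cells from 189 and 202 CPM to 338 and 310 CPM, in NPAT siRNA cells from 164 and 172 CPM to 290 and 344 CPM, and in SLBP siRNA cells from 243 and 203 CPM to 380 and 404 CPM. All 8 libraries with TGFb lay above all 8 without. The log2 fold changes were 0.7, 0.73, 0.91 and 0.81 in that order, each with an SE of 0.13, and the adjusted p were 0.0055, 0.0058, 0.0011 and 0.0012.
The calls in NPAT and SLBP siRNA cells held in all 22 settings. That in non-transfected cells was lost without non-transfected replicate 1 or without replicate 2 with TGFb (highest adjusted p = 0.072), and that in FLASH siRNA cells without replicate 1 of either of its groups (highest adjusted p = 0.09). No siRNA gave a difference in ENAH from non-transfected cells that passed: the 6 log2 fold changes lay between -0.26 and 0.26 and had adjusted p of at least 0.14.

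The siRNAs were also set against each other, which leaves out the difference between cells with and without an siRNA. Without TGFb, FLASH siRNA cells held more FGFR2 (log2 fold change 0.96 ± 0.24, adjusted p = 0.013), ESRP1 (1.01 ± 0.33, adjusted p = 0.045) and ESRP2 (0.47 ± 0.15, adjusted p = 0.04) than NPAT siRNA cells, and less QKI (-0.35 ± 0.12, adjusted p = 0.047) and CD44 (-0.4 ± 0.13, adjusted p = 0.039). These were 5 of 9 genes, where 22.3% of all genes passed, and all but FGFR2 lost their calls in at least 5 of 22 settings. FGFR2 lost its call in 2, without FLASH siRNA replicate 1 (0.75, adjusted p = 0.13) or NPAT siRNA replicate 2 (0.82, adjusted p = 0.098). Without NPAT siRNA replicate 2 the difference was 0.62 for ESRP1 (adjusted p = 0.27) and -0.22 for QKI (adjusted p = 0.29), and without NPAT siRNA replicate 1 it was 1.55 for ESRP1. The replicate block added CTNND1 (-0.33, adjusted p = 0.02).
Against SLBP siRNA, FLASH siRNA cells held more FGFR2 (1.38 ± 0.24, adjusted p = 0.0018), ESRP1 (1.32 ± 0.33, adjusted p = 0.013) and ESRP2 (0.61 ± 0.15, adjusted p = 0.012) and less CTNND1 (-0.73 ± 0.14, adjusted p = 0.0031), 4 of 9 genes where 26.2% of all genes passed. The FGFR2 and CTNND1 calls held in all 22 settings. Those of ESRP1 and ESRP2 were lost without FLASH siRNA replicate 1 (1.2 and 0.55, adjusted p = 0.086 and 0.092) or SLBP siRNA replicate 2 (0.96 and 0.58, adjusted p = 0.093 and 0.052), and that of ESRP2 also in a fit of the 2 groups alone. Here the replicate block added MBNL1 (-0.23, adjusted p = 0.03).

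NPAT siRNA cells held more CD44 (0.61 ± 0.13, adjusted p = 0.007) and less RBFOX2 (-0.44 ± 0.1, adjusted p = 0.014) and ENAH (-0.41 ± 0.13, adjusted p = 0.05, just below the threshold before rounding and lost in 13 of 22 settings, down to -0.27 without SLBP siRNA replicate 1) than SLBP siRNA cells without TGFb, 3 of 9 genes where 16% of all genes passed, and the replicate block added CTNND1 (-0.39, adjusted p = 0.011) and MBNL1 (-0.27, adjusted p = 0.021). The CD44 and RBFOX2 calls were each lost in 3 settings, among them the omission of SLBP siRNA replicate 2 (0.45 and -0.37, adjusted p = 0.051 and 0.065), and that of RBFOX2 also without NPAT siRNA replicate 2 (-0.38, adjusted p = 0.086).
With TGFb, FLASH siRNA cells held more FGFR2 than NPAT siRNA cells (1.09 ± 0.25, adjusted p = 0.013) and more ESRP2 (0.5 ± 0.15, adjusted p = 0.047, lost in 14 settings), where 13.6% of all genes passed. The ESRP2 difference was 0.31 without NPAT siRNA replicate 2 with TGFb (adjusted p = 0.37). The FGFR2 call was lost in 4 settings, the TPM scale (0.86, adjusted p = 0.17) and the omission of FLASH siRNA replicate 2 (0.89, adjusted p = 0.14) or of either NPAT siRNA library with TGFb (0.85 and 1.29, adjusted p = 0.1 and 0.059). Against SLBP siRNA with TGFb they held more ESRP1 (1.4 ± 0.35, adjusted p = 0.021), ESRP2 (0.68 ± 0.15, adjusted p = 0.013) and FGFR2 (0.93 ± 0.24, adjusted p = 0.028), where 13% of all genes passed, and the replicate block added CTNND1 (-0.33, adjusted p = 0.03). The ESRP1 and ESRP2 calls were lost without either FLASH siRNA library or without SLBP siRNA replicate 2 (1.05 and 0.57, adjusted p = 0.17 and 0.12). The FGFR2 call was lost in 4 settings, with 0.61 without SLBP siRNA replicate 1 (adjusted p = 0.21) and 0.74 without FLASH siRNA replicate 2 (adjusted p = 0.22).
Between NPAT and SLBP siRNA with TGFb none of the 9 genes passed in edgeR, where 12.4% of all genes did. Here 4 of the 9 had an unadjusted p below 0.05, DESeq2 called 1, and with the replicate block ESRP1 (0.83, adjusted p = 0.023) and CD44 (0.37, adjusted p = 0.021) passed.

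The mix of transcript forms was read from the isoform-weighted length, which the authors deposited for each gene and library and which moves when longer or shorter forms take a larger share. The log2 lengths were compared with limma over 12445 genes with at least 10 counts in every library. In 13 comparisons (TGFb in each kind of cell, each siRNA without and with TGFb, and the interactions) none of the 9 genes passed, and over all genes between 0 and 34 did. The 34 genes (0.273%) were in the comparison of NPAT siRNA with non-transfected cells without TGFb. The shares were 0.0161% for SLBP siRNA with TGFb, 0.00804% for TGFb in FLASH siRNA cells and for FLASH and SLBP siRNA without TGFb, and 0 in the other 8.
At an unadjusted p below 0.05, there was 1 gene of the 9 in 5 of the 13 comparisons and none in the other 8. Of all genes, 5.61% (non-transfected), 4.19% (FLASH), 4.89% (NPAT) and 4.84% (SLBP) reached that level for TGFb, 8.49%, 11% and 9.46% for FLASH, NPAT and SLBP siRNA without TGFb, 7.38%, 7.63% and 7.12% with TGFb, and 3.8%, 4.97% and 4.39% for the interactions. No alternative setting called a gene of the 9 by length. Over all genes, the median library shift in length was -0.287% to 0.623% around each gene's own median.

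The largest length difference of the 9 genes with an unadjusted p below 0.05 was that of CD44. Its length was 2044 and 1992 bases in non-transfected cells and 2272 and 2484 bases after NPAT siRNA. The NPAT siRNA libraries lay above the controls, by 17.7% (95% interval 5.83% to 31%, unadjusted p = 0.0071, adjusted p = 0.25). After SLBP siRNA the lengths were 2203 and 2335 bases, 12.4% above the controls (1.07% to 25.1%, unadjusted p = 0.035, adjusted p = 0.48).
After FLASH siRNA they were 2164 and 2244 bases, 9.24% above (-1.81% to 21.5%, unadjusted p = 0.094, adjusted p = 0.67). With TGFb the controls were at 2026 and 2156 bases and the siRNA groups at 2131 to 2454 bases, and the SLBP libraries overlapped with the controls. CD44 length thus exceeded both controls in all 6 siRNA libraries without TGFb, and none of these differences passed the adjustment. The 39 annotated CD44 transcripts run from 352 to 5732 bases, so a change in first or last exons can move the length as well as a change in the variable block.

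MBNL1 showed the next such difference. Its length was 2961 and 2932 bases in non-transfected cells and 3187 and 3188 bases after FLASH siRNA, 8.17% longer (0.0613% to 16.9%, unadjusted p = 0.049, adjusted p = 0.58). With TGFb it was 2981 and 3226 bases in controls and 3268 and 3643 bases after FLASH siRNA, 11.3% longer (2.93% to 20.3%, unadjusted p = 0.013, adjusted p = 0.52). The groups did not overlap in either condition. MBNL1 in FLASH siRNA cells was also longer with TGFb than without, by 8.27% (0.156% to 17%, unadjusted p = 0.046, adjusted p = 1).

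RBFOX2 had the tightest lengths, 1415 to 1535 bases over the 16 libraries. FLASH siRNA cells held lengths of 1470 and 1535 bases against 1440 and 1464 bases in controls, and with TGFb 1504 and 1524 bases against 1450 and 1459 bases. These were differences of 3.44% and 4.07%, with unadjusted p of 0.093 and 0.054.
ENAH, whose level rose with TGFb, kept lengths of 2580 to 3074 bases, and its 4 TGFb differences were between -4.93% and 3.57%, with adjusted p of 1. CTNND1 kept 5021 to 5552 bases and differences of at most 3.72% in size for TGFb and siRNA. ESRP1 (2255 to 3512 bases), ESRP2 (2108 to 2930 bases), QKI (2106 to 2632 bases) and FGFR2 (2531 to 4003 bases) were scattered: the 2 FGFR2 libraries of the NPAT siRNA group alone read 2873 and 4003 bases.

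**Figure D3:**
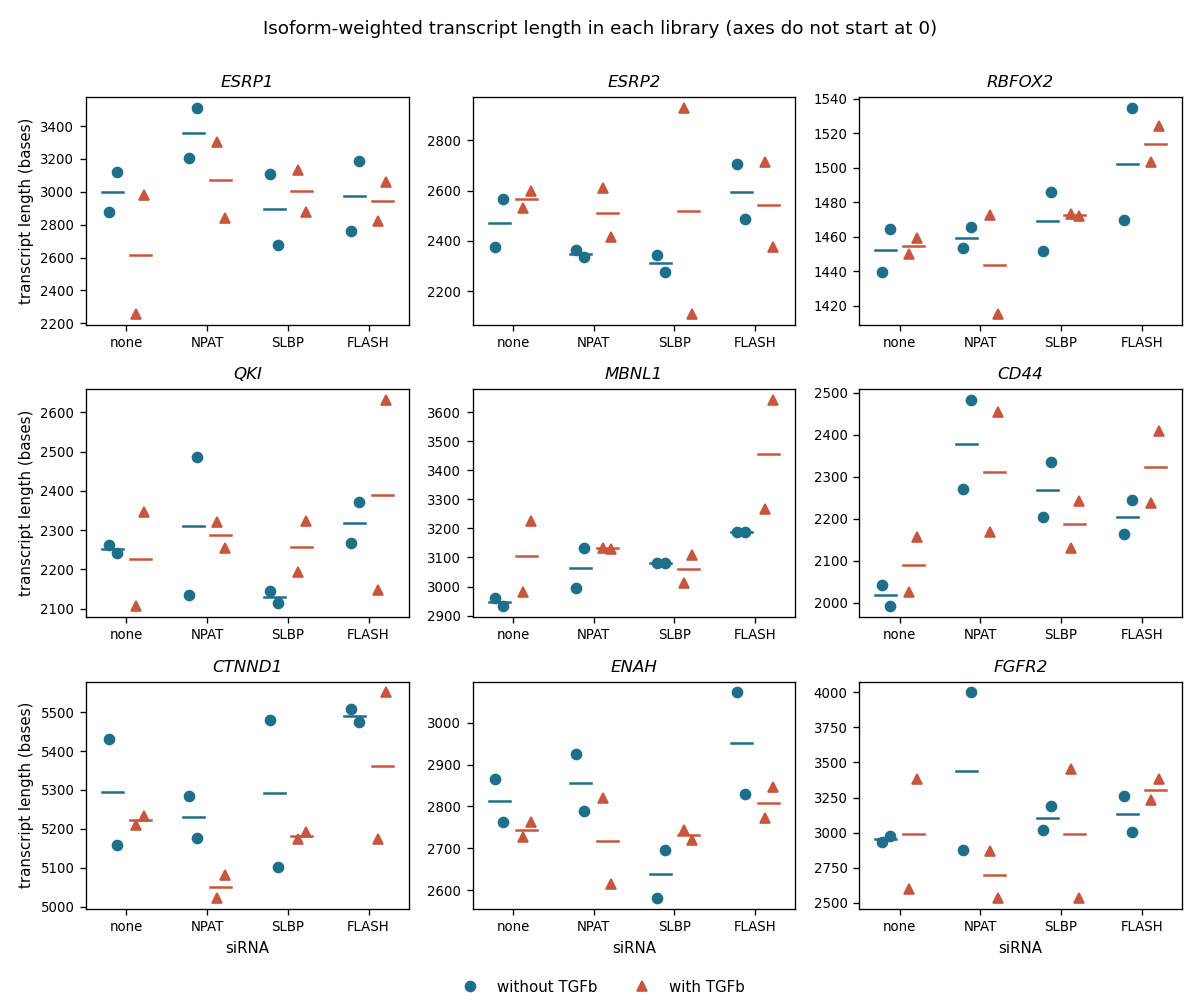
Isoform-weighted transcript length in bases of each of the 9 genes in every library (circles without TGFb, triangles with TGFb, short lines the mean of 2 libraries), by siRNA. CD44 is longer in all 6 siRNA libraries without TGFb than in the 2 non-transfected ones, and FGFR2, ESRP1 and ESRP2 scatter within groups.

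These lengths could not show switches of the single exons printed above. The 95% interval of a length comparison extended 215 bases to either side for ENAH in non-transfected cells with against without TGFb, against the 63 bases of exon 11a. It extended 338 bases for CTNND1, against the 18 bases of exon C and 63 to 87 bases of its other optional exons. For FGFR2 it extended 1011 bases, where a full switch between the IIIb and IIIc exons moves the length by 3 bases. A switch of these exons was thus not detectable in the deposited values, and the absence of a switch was not shown. The change in the start of CTNND1 was not sized. For CD44 the interval extended 227 bases, less than the up to 1092 bases of the variable block but more than any single exon. A switch of single exons was thus not within reach. The interval is not adjusted for the number of genes tested, whereas a gene passed on its adjusted p alone. After NPAT siRNA without TGFb, CD44 was 17.7% longer (limma, unadjusted p = 0.0071) and did not pass (adjusted p = 0.25). The share of transcripts that would have to switch the whole block to pass was not tested.

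**Figure D4:**
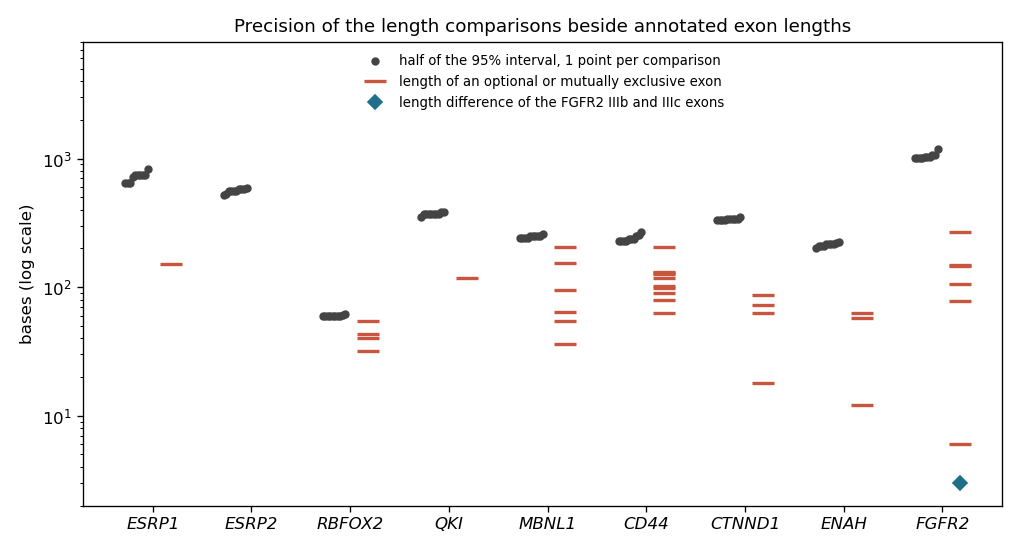
Distance in bases (log scale) from a length difference to the end of its 95% interval for each of the 9 genes (points, 10 comparisons each), beside the length of each annotated optional or mutually exclusive exon (bars) and the length difference of the FGFR2 pair (diamond). For every gene with such exons the intervals are wider than any single exon.

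Of 38 other regulators of splicing that were listed, 36 were tested. FLASH siRNA raised 6 and lowered 6 without TGFb, NPAT siRNA raised 2 and lowered 6, and SLBP siRNA raised 5 and lowered 10, with list medians of -0.05, -0.08 and -0.11 on the log2 scale against 0.04, 0.06 and 0.05 for all genes. These were 33.3%, 22.2% and 41.7% of the list, where 33.8%, 32.3% and 25.9% of all genes passed. Without TGFb the share was thus close to the background for FLASH siRNA, below it for NPAT siRNA and above it for SLBP siRNA. With TGFb the shares were 30.6%, 16.7% and 25% in that order, where 26.6%, 24.1% and 19.9% of all genes passed. This list too was chosen with earlier results of these data known. HNRNPH1, a splicing repressor and activator of the hnRNP family, had a level of 289 ± 35.9 CPM without siRNA or TGFb (SD, n = 2). It fell by 0.89 ± 0.11 on the log2 scale after FLASH siRNA (adjusted p = 0.00011) and by 1.16 ± 0.11 after NPAT siRNA (adjusted p = 4.2e-05).
RBM47, an RNA-binding protein of epithelial cells, was at 4.91 ± 0.376 CPM in non-transfected cells, 9.76 ± 0.679 CPM after NPAT siRNA and 1.89 ± 0.229 CPM after SLBP siRNA. It thus rose by 0.99 ± 0.19 after NPAT siRNA (adjusted p = 0.0024) and fell by 1.37 ± 0.2 after SLBP siRNA (adjusted p = 0.00076).
With TGFb, 1 of these regulators rose in non-transfected, 1 in FLASH, 1 in NPAT and 2 in SLBP siRNA cells, and 1 fell in NPAT and in SLBP siRNA cells. In all 2.78%, 2.78%, 5.56% and 8.33% of the list passed, where 6.18%, 4.11%, 5.33% and 12.6% of all genes did. RBM24 was the 1 that rose in non-transfected cells (0.73 ± 0.12, adjusted p = 0.0033), from 55.9 ± 0.581 to 92.5 ± 1.41 CPM, and RBM47 fell in NPAT (-0.79 ± 0.19, adjusted p = 0.027) and SLBP siRNA cells (-0.89 ± 0.23, adjusted p = 0.023). By length, SRSF1 after NPAT siRNA was the 1 of 32 such regulators tested that passed (7.21% longer, adjusted p = 0.043, limma).

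Of 27 other transcripts known to be spliced in epithelial and mesenchymal forms, FLASH siRNA raised 4 and lowered 2 without TGFb, NPAT siRNA raised 5 and lowered 1, and SLBP siRNA raised 6 and lowered 2. These were 22.2%, 22.2% and 29.6% of the list, below the 33.8% and 32.3% of all genes for FLASH and NPAT siRNA and near the 25.9% for SLBP siRNA. The receptor FGFR3, which also comes in IIIb and IIIc forms, was at 4.48 ± 1.69 CPM in non-transfected cells and rose after each siRNA without TGFb, by 2.67 ± 0.41 (FLASH, adjusted p = 0.00044), 3.17 ± 0.41 (NPAT, adjusted p = 0.00027) and 1.88 ± 0.41 (SLBP, adjusted p = 0.0059).
None of the 27 passed by length in any of the 13 comparisons (limma), with 1 to 5 at an unadjusted p below 0.05.

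Of 10 listed fibroblast growth factors, the ligands of FGFR2 and its relatives, 6 were tested. FGF1, which binds both the IIIb and the IIIc form, rose with TGFb in all 4 kinds of cells. It went from 0.0547 ± 0.0236 to 0.829 ± 0.00408 CPM (SD, n = 2) in non-transfected cells (adjusted p = 0.00048), from 0.402 ± 0.152 to 3.09 ± 0.254 CPM in FLASH (adjusted p = 0.00023), from 0.231 ± 0.00705 to 7.04 ± 0.591 CPM in NPAT (adjusted p = 5.7e-06) and from 0.172 ± 0.106 to 2.73 ± 0.285 CPM in SLBP siRNA cells (adjusted p = 1.9e-05). The libraries without TGFb held so few counts of it that no fold change is given. FGF1 was kept for testing through the groups with TGFb, where it was high, so these p values are not taken as independent support. FGF2 was at 48.9 ± 6.33 CPM in non-transfected cells and 31.4 ± 0.681 CPM after FLASH siRNA, and fell there (-0.64 ± 0.23, adjusted p = 0.047). Of the 6 ligands, FLASH and NPAT siRNA each raised 2 and lowered 1 without TGFb, and SLBP siRNA lowered 1. The shares were 50%, 50% and 16.7%, where 33.8%, 32.3% and 25.9% of all genes passed. With TGFb, FLASH siRNA raised 2, NPAT siRNA raised 2 and lowered 1, and SLBP siRNA raised 1. That was 33.3%, 50% and 16.7%, where 26.6%, 24.1% and 19.9% of all genes passed.

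ESRP1 and ESRP2 are among the genes that the transcription factor ZEB1 is known to repress, and a part of ZEB1 in their levels here was not tested. ZEB1 was at 68.9 ± 0.0797 CPM in non-transfected cells. It fell after FLASH siRNA (39.8 ± 2.71 CPM, log2 fold change -0.79 ± 0.12, adjusted p = 0.00033), after NPAT siRNA (47.6 ± 4.05 CPM, -0.53 ± 0.12, adjusted p = 0.0048) and after FLASH siRNA with TGFb (-0.49 ± 0.12, adjusted p = 0.008). TGFb raised it in FLASH (0.56 ± 0.12, adjusted p = 0.016), NPAT (0.46 ± 0.12, adjusted p = 0.037) and SLBP siRNA cells (0.55 ± 0.12, adjusted p = 0.0077). After FLASH siRNA, some other EMT transcription factors went the other way from ZEB1. Among the 5 tested, FLASH siRNA raised 2 and lowered 1 without TGFb and raised 1 and lowered 1 with TGFb. NPAT siRNA lowered 1 without and raised 1 with TGFb, and SLBP siRNA raised 1 with TGFb. The shares passing were 60%, 20% and 0% (33.8%, 32.3% and 25.9% of all genes) and with TGFb 40%, 20% and 20% (26.6%, 24.1% and 19.9%). TGFb itself raised 1, 2, 2 and 3 of the 5 in non-transfected, FLASH, NPAT and SLBP siRNA cells, and lowered 1 in SLBP siRNA cells. In all 20%, 40%, 40% and 80% passed, where 6.18%, 4.11%, 5.33% and 12.6% of all genes did. This list was also chosen with earlier results of these data known. Of 13 epithelial genes tested, FLASH and NPAT siRNA each raised 8 without TGFb and SLBP siRNA 4, and with TGFb they raised 11, 10 and 5, with none lower. Of all genes 20.8%, 18.9% and 15.1% passed as higher without TGFb and 17.5%, 13.7% and 12.3% with TGFb. The list median was 1.47, 1.09 and 0.45 without TGFb, against 0.04, 0.06 and 0.05 for all genes. The list was chosen with earlier results of these data known, so its excess over all genes is not an independent result. CDH1 (E-cadherin), to which p120 catenin binds, was at 6.28 ± 1.25 CPM in non-transfected cells and 29.5 ± 2.97 CPM after NPAT siRNA (log2 fold change 2.23 ± 0.19, adjusted p = 1.5e-05). TGFb lowered 4 of the 13 in non-transfected cells, 1 in FLASH, 5 in NPAT and 5 in SLBP siRNA cells, and raised 1 in SLBP siRNA cells (ST14). Of all genes 1.64%, 0.755%, 1.92% and 4.51% passed as lower in that order, and 8.07% as higher in SLBP siRNA cells.

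The genes most like ESRP1, ESRP2 and FGFR2 over the 8 group means were found as those with the smallest root mean square difference of centred log2 CPM, among 14177 genes with a mean of at least 1 CPM. For ESRP1 they were PSTPIP2 (0.09), DCDC2 (0.13) and RTN4RL1 (0.14), where the median over all genes was 0.78. For ESRP2 they were THAP10 (0.06), DCTN3 (0.07) and MARVELD2 (0.07), with a median of 0.38. For FGFR2 they were EPCAM (0.15), SAMHD1 (0.16) and CEBPA (0.16), with a median of 0.71. Among the 9 genes, FGFR2 was the most like ESRP1 (0.25), ESRP2 came next (0.54) and ENAH was the least like it (0.98). QKI and MBNL1 had the smallest difference of the 36 pairs (0.19).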

How the data were processed

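RNA of 16 PANC-1 libraries was sequenced from a stranded poly(A) kit, per the labels' protocols. STAR 2.4.2a, RSEM 1.2.31 and GRCh38 p10 are named in the submitters' processing notes, and the annotation release and the strand setting of the counting are not given in the sources used here. The authors deposited for each gene and library an expected count (an estimate that shares reads among transcripts), a TPM value and an isoform-weighted length in bases. A further 32 columns of the table, with FPKM and effective lengths, played no part. Members and gene lists were chosen with earlier results of these data known.

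Expected counts were rounded and tested with edgeR 4.0.16 (R 4.3.3) by its quasi-likelihood test, with TMM scaling, filterByExpr, 1 mean per group over all 16 libraries and Benjamini-Hochberg adjustment over 17743 genes. CPM are counts scaled to the TMM-adjusted library size. The log2 lengths were tested with limma 3.58.1 (robust, with a trend on mean expression) in 12445 genes with at least 10 counts in every library. Alternatives were other scaling, no filter, a replicate block, the 2 compared groups alone, DESeq2 1.42.0, limma on log2(TPM + 0.1), the omission of each library and, for length, a minimum of 50 counts or weights. Intervals are 95% intervals of the fits. The scripts were tested on simulated data.

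Groups share replicate numbers in the labels, which do not say what a number marks. The difference of replicate 1 and 2 correlated between groups in all 28 pairs of groups (0.115 to 0.733, median 0.426, over 14178 genes). From these data the numbers were taken to pair the libraries, in the replicate block alone. The main fits leave this pairing out and call fewer of the 9 genes. Over all comparisons the block added 24 calls and lost none. Genes named from the lists are at most 4 in a list and comparison, those with the largest fold change among those that passed. Positions and exons are from GENCODE release 29, which matched 7 of the 9 deposited identifiers with their version and the other 2 (ESRP1 and CD44) without it.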

Additional observations from a re-analysis of the deposited data

How the results depend on the processing

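Counts of the 9 genes that passed by level moved by over 1.5 times with the processing as follows. With the replicate block, the count went from 1 to 2 for TGFb in FLASH, from 1 to 3 in NPAT and from 2 to 5 in SLBP siRNA cells, from 1 to 4 for SLBP siRNA without and with TGFb, from 1 to 3 for NPAT siRNA with TGFb, and for NPAT against SLBP siRNA from 3 to 5 without and from 0 to 2 with TGFb. Over all comparisons the block added 24 calls, lost none and changed no other call. Fits of the 2 groups alone gave 3 for TGFb in FLASH and 1 in SLBP siRNA cells, 0 for SLBP siRNA without and with TGFb, 2 and 1 for FLASH against NPAT siRNA without and with TGFb, and 0 for NPAT against SLBP siRNA without TGFb. On the TPM scale the counts were 1 for TGFb in SLBP siRNA cells, 1 for NPAT siRNA without and 2 with TGFb, 0 for SLBP siRNA with TGFb, 2 and 1 for FLASH against NPAT siRNA without and with TGFb, and 1 for NPAT against SLBP siRNA without TGFb. Without the filter they were 2 for TGFb in NPAT siRNA cells, for SLBP siRNA without TGFb, for NPAT siRNA with TGFb and for NPAT against SLBP siRNA with TGFb, and 1 for FLASH against NPAT siRNA with TGFb. DESeq2 gave 2 for TGFb in NPAT siRNA cells and 1 for NPAT against SLBP siRNA with TGFb. A further 18 counts moved by 1.5 times or less: 16 by 1 gene, and 2 by 2 genes (FLASH siRNA without TGFb, from 6 to 4 without the filter and on the TPM scale). Of these 18, 6 were with the replicate block, 5 without the filter, 3 in fits of the 2 groups alone, 2 on the TPM scale, 1 with DESeq2 (NPAT against SLBP siRNA without TGFb, from 3 to 4) and 1 with its size factors. The cause was not tested.

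Without 1 library, the counts ranged from 0 to 1 for TGFb in non-transfected and FLASH siRNA cells and from 1 to 2 in NPAT and SLBP siRNA cells. Against non-transfected cells they ranged from 3 to 6 (FLASH), 1 to 3 (NPAT) and 1 to 2 (SLBP) without TGFb, and from 2 to 4, 0 to 2 and 0 to 2 with TGFb. Between siRNAs without TGFb they ranged from 0 to 6 (FLASH against NPAT), 2 to 4 (FLASH against SLBP) and 1 to 3 (NPAT against SLBP), and with TGFb from 0 to 2, 0 to 3 and 0 to 1. No direction reversed, and the counts by length and for the interactions were 0 in every setting run. With 2 libraries a group and as few as 53 counts of FGFR2 and 59 of ESRP1 in a library, differences under about the width of the printed intervals were not detectable.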
